A study of Mus musculus with 17 samples.

Results

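NOTCH ligands, receptors and target genes were followed in cultured mouse ovarian follicles through 10 genes, chosen by symbol: the ligands Jag1 and Jag2, the receptors Notch1, Notch2 and Notch3, the nuclear partner Rbpj, and the targets Hes1, Hey1, Hey2 and Heyl. All 10 were found among the 25198 gene rows of the count table. The follicles were antral follicles of CD1 mice, a strain given without further genotype, taken at 16 days of age and grown for 8 days in eIVFG, an encapsulated culture system. The treated group, Tyrphostin (6 libraries), received Tyrphostin-AG1478 (10 µM), which blocks the kinase of EGFR, in DMSO together with hCG, the gonadotropin that triggers ovulation, for 4 h. The comparison group, Control, had 11 libraries, whose names carry the set numbers 1, 2, 4, 5 and 6. The same treatment text stands in the labels of every library, so whether Control follicles also received hCG and DMSO is not stated. Each library pooled follicles taken in triplicate, and batch 1 held 6 Control and 3 Tyrphostin libraries while batch 2 held 5 Control and 3 Tyrphostin libraries. The labels do not say whether libraries came from separate animals or cultures, so p-values measure the spread between libraries, which may be technical.

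NOTCH receptors are membrane proteins that bind Jagged or Delta ligands on a neighbouring cell. Binding exposes the receptor to cleavage by ADAM proteases and then by gamma-secretase, and the freed intracellular domain enters the nucleus, where it joins RBPJ and a Mastermind coactivator at target genes. The best known targets are the Hes and Hey genes, which encode transcriptional repressors. In the ovary, NOTCH signalling is known for contact between oocyte, granulosa and vascular cells, with NOTCH2 as a main receptor of granulosa cells and JAG1 as a main ligand. EGFR signalling relays the ovulatory hormone signal from the outer follicle wall to the cumulus cells.

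The upstream DNA of 3 members is shown: the ligand and the receptor that fell, Jag1 and Notch2, and Hey2, the target with the most positive fold change. The stretches come from the RefSeq table of mouse build GRCm38.p6, which held windows for 7 of the 10 members, and each is cut to the bases outside annotated exons. Capitals mark the letters found by a search of 4 motifs on both strands of 250 bases before each start: the RBPJ core TGGGAA, the E-box CACGTG and the N-box CACNAG (letters that HES and HEY proteins are known to bind), and the cAMP response element core TGACG.
Jag1, chr2:137116645-137116770, minus strand: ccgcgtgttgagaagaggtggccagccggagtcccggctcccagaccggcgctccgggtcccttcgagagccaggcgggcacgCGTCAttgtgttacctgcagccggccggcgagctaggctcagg
Notch2, chr3:98013288-98013526, plus strand: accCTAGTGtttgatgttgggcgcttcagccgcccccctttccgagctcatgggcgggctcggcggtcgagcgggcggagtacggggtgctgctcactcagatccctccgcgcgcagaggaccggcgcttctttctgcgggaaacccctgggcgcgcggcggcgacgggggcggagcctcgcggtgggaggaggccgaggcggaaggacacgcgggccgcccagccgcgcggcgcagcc
Hey2, chr10:30842802-30843033, minus strand: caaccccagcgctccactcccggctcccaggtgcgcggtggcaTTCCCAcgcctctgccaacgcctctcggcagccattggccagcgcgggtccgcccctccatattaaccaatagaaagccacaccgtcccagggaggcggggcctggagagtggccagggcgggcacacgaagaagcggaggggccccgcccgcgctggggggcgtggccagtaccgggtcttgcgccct
The Jag1 stretch holds the cAMP response element core on the opposite strand, 163 to 167 bases before the RefSeq start. The Notch2 stretch holds an N-box on the opposite strand, 242 to 247 bases before the start. The Hey2 stretch holds the RBPJ core on the opposite strand, 202 to 207 bases before the start. Such matches are frequent: of 32851 mouse windows of 250 bases, 21.6% hold TGGGAA, 36.7% hold CACNAG, 17.8% hold TGACG and 6.02% hold CACGTG, so a match describes the letters only.

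Library totals ran from 1820545 counts in Control 6 to 8291024 in Control 8, and levels are given as CPM, counts scaled to a common library size with TMM factors. A count of 3 corresponds to 0.336 CPM in the deepest library and 1.64 CPM in the shallowest. Summed levels of 9 granulosa markers ran from 62500 to 81300 CPM in Control and from 52700 to 78500 CPM in Tyrphostin libraries. Inha and Inhba made up most of that sum. Of the 7 tested, 4 passed edgeR's test, Fshr, Cyp19a1, Nr5a2 and Hsd17b1. All were higher with Tyrphostin, as were 4.35% of all genes tested. Inha (log2 fold change -0.05), Inhba (-0.07) and Fst (1.05) did not pass. The median log2 fold change over the 7 theca and stroma markers tested was -0.03, and over the 7 oocyte markers 0.41. The theca and stroma sum ran from 253 to 2130 CPM across Control and from 271 to 3010 CPM across Tyrphostin libraries, and it was highest in Tyrphostin 5, Control 7 and Control 8. The immune sum ran from 18.7 to 462 CPM and from 19.1 to 855 CPM, the endothelial sum from 5.76 to 90.6 CPM and from 7.46 to 33.7 CPM, the mural sum from 10.5 to 74.7 CPM and from 15.1 to 63.4 CPM, and the oocyte sum from 17 to 83.5 CPM and from 19.2 to 221 CPM. Every listed marker had a count in some library of each group, and the part of these cells in the results below was not tested. Control 7 also stood apart in mitochondrial counts, 0.175% of its total against 0.781% to 2.83% in the others. In bulk samples fewer cells of a type and less RNA per cell cannot be told apart.

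Of the ligands, Jag1 fell in the treated follicles and Jag2 was scarcely detected. JAG1, a membrane ligand of NOTCH receptors, is encoded by Jag1 on chromosome 2 (137081456 to 137116644, minus strand, GENCODE M21 on GRCm38). Its level ran from 79.8 to 146 CPM in Control, with a median of 109 CPM and a mean of 116 ± 20.3 CPM (SD, n = 11). The Tyrphostin libraries of batch 1 held 25.8, 32.6 and 33.6 CPM and those of batch 2 held 45.4, 29.4 and 22.8 CPM, a mean of 31.6 ± 7.90 CPM (SD, n = 6). All 6 Tyrphostin libraries lay below all 11 Control libraries, a separation in that direction that 1% of the 9603 genes tested shared and that 0.51% showed in the opposite direction. In edgeR's quasi-likelihood test with batch as a term, Jag1 fell by 1.87 ± 0.18 on the log2 scale (SE), or 3.65-fold, with an adjusted p of 3.11e-07. Jag2, a second Jagged ligand, held 1 to 20 counts in Control and 6 to 13 in Tyrphostin. The mean in Control was 1.55 ± 1.09 CPM (SD, n = 11). The mean with Tyrphostin was 1.84 ± 0.757 CPM (SD, n = 6). Jag2 did not pass the filter on low counts, so it has no test over all libraries.

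**Figure D1:**
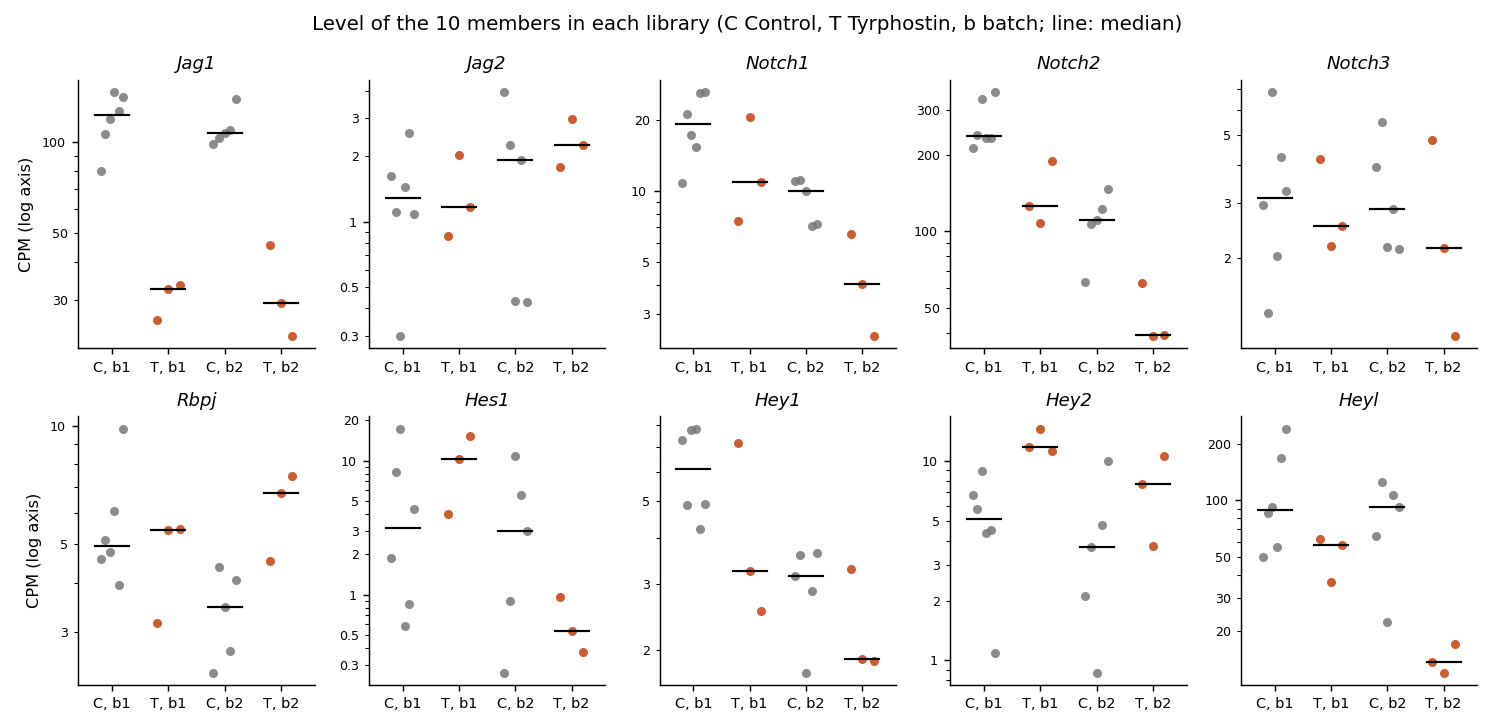
Level of each of the 10 genes in CPM (log axis), 1 point per library, by group (C Control, T Tyrphostin) and batch (b), with the median as a line. The Jag1 points of the 2 groups do not overlap, with Tyrphostin at 22.8 to 45.4 CPM and Control at 79.8 to 146 CPM.

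Among the receptors, Notch2 fell, Notch1 missed the threshold, and Notch3 was low in both groups. Notch2 lies on chromosome 3 (98013527 to 98150361, plus strand). Its Control libraries spanned 213 to 354 CPM in batch 1 and 63.5 to 147 CPM in batch 2. The Tyrphostin libraries held 126, 108 and 190 CPM in batch 1 and 62.4, 38.8 and 39.0 CPM in batch 2. Within each batch every Tyrphostin library lay below every Control library, as for 6.46% of genes tested in batch 1 and 4.89% in batch 2. Across batches the groups overlapped, since batch 1 Tyrphostin libraries reached the level of batch 2 Control libraries. Notch2 fell by 1.07 ± 0.20 on the log2 scale (SE), 2.10-fold, with an adjusted p of 0.000898 in edgeR, and without the batch term the adjusted p was 0.109. Notch1, on chromosome 2, held 7.09 to 26.3 CPM in Control (median 11.1 CPM) and 7.46, 20.5 and 10.9 CPM (batch 1) and 6.58, 4.04 and 2.42 CPM (batch 2) in Tyrphostin. Its batch 2 Tyrphostin libraries lay below all Control libraries. The 4.89% of genes given above counts Control libraries of batch 2 alone, and the share against both batches was not computed. In batch 1, Tyrphostin 1 lay below the Control range of that batch, 10.8 to 26.3 CPM, and Tyrphostin 2 and Tyrphostin 3 lay within it. Its log2 fold change was -0.79 ± 0.26 (SE), with a 95% interval from -1.32 to -0.26 and an adjusted p of 0.0509 in edgeR. The call was gained when Control 1 (adjusted p 0.0290), Tyrphostin 2 (0.0101) or Tyrphostin 4 (0.0441) was left out of edgeR's fit. Of 12 alternative settings, 4 also gave the call: RLE scaling and a stricter filter on low counts in edgeR, DESeq2, and limma-voom. Notch3, on chromosome 17, had 1.33 to 6.87 CPM in Control and 1.12 to 4.80 CPM in Tyrphostin, and a log2 fold change of -0.25 ± 0.35 (SE) with an interval from -0.98 to 0.48 (edgeR adjusted p 0.731).

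Some exon bases of these receptors are annotated in other genes too. Of the merged exon bases, 7.5% of Notch1 overlap 0610009E02Rik and 2.91% overlap Gm13568, both on the opposite strand, 5.02% of Notch2 overlap Gm42820 on the same strand, and 6.03% of Notch3 overlap the antisense gene Gm17276. Whether counting used strand is not given in the sources used here, so reads from these bases cannot be told apart.

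Rbpj, on chromosome 5, encodes the DNA-binding protein through which the receptor domain reaches its targets. Control libraries averaged 4.67 ± 2.02 CPM (SD, n = 11). Treated libraries averaged 5.46 ± 1.54 CPM (SD, n = 6). The log2 fold change was 0.29 ± 0.27 (SE), with an interval from -0.26 to 0.85 and an adjusted p of 0.561 in edgeR. In batch 2 the Tyrphostin libraries held 4.53, 6.74 and 7.46 CPM, above all 5 Control libraries of that batch (2.36 to 4.37 CPM). Of the genes tested in batch 2, 4.21% separated in that direction. In batch 1 they held 3.16, 5.44 and 5.46 CPM, inside or below the Control range of 3.95 to 9.85 CPM.

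The 4 target genes did not move together. Heyl fell, Hey2 had a value on the other side of 0, and Hey1 and Hes1 did not pass the test. Heyl, a Hey-family repressor encoded on chromosome 4 (123233556 to 123249875, plus strand), ranged widely in Control, from 22.2 to 243 CPM with a median of 91.8 CPM. Tyrphostin libraries held 62.1, 36.4 and 57.8 CPM in batch 1 and 13.6, 11.9 and 17 CPM in batch 2. The batch 2 libraries lay below every Control library, and the batch 1 libraries overlapped the lower Control values. Against the Control libraries of batch 2 alone, 4.89% of genes tested there separated in that direction. The share against both batches was not computed. Heyl fell by 1.76 ± 0.42 on the log2 scale (SE), 3.38-fold, with an adjusted p of 0.0106 in edgeR. The adjusted p was 0.0533 with Control 7, Control 8 and Tyrphostin 5, the libraries with the highest theca and stroma sums, left out (log2 fold change -1.53).

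Hey2, another Hey-family repressor, lies on chromosome 10 (30832359 to 30842801, minus strand). Its Control level ran from 0.869 to 10.0 CPM with a median of 4.51 CPM. Tyrphostin libraries held 11.8, 14.6 and 11.3 CPM in batch 1 and 7.68, 3.77 and 10.6 CPM in batch 2. All 3 of batch 1 lay above every Control library of that batch, as for 5.04% of the genes tested there. In batch 2, 1 of the 3 lay above every Control library of its batch. The log2 fold change was 0.99 ± 0.33 (SE), with an interval from 0.30 to 1.68 and an adjusted p of 0.0587 in edgeR. It became a call without Control 11 (adjusted p 0.00968), Tyrphostin 5 (0.0336) or, just under the threshold, Control 3, and without Control 7, Control 8 and Tyrphostin 5 together (0.0487).

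Hey1, the third Hey gene, averaged 4.72 ± 2.08 CPM (SD, n = 11) in Control. With Tyrphostin it averaged 3.34 ± 1.98 CPM (SD, n = 6). Its log2 fold change was -0.43 ± 0.27 (SE), with an interval from -0.995 to 0.13 (edgeR adjusted p 0.354). Hes1, the Hes-family repressor, had the widest mean deviation over the 17 libraries of the 9 tested members, 1.40 on the log2 scale. Its Control level ran from 0.262 to 17.3 CPM, and the Control 4, Control 5 and Control 7 libraries held at most 3 counts. Tyrphostin libraries held 4.02, 10.3 and 15.2 CPM in batch 1 and 0.960, 0.539 and 0.373 CPM in batch 2, where Tyrphostin 5 and Tyrphostin 6 had 2 counts each. The log2 fold change was -0.24 ± 0.76 (SE), with an interval from -1.85 to 1.37 (edgeR adjusted p 0.899). It was 0.14 without Control 3 and 0.01 without Tyrphostin 6.

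In all, 3 of the 9 members tested were called at an adjusted p under 0.05 in edgeR, and all 3 were lower with Tyrphostin. Among the 9603 genes tested, 10.6% were called, 4.35% higher and 6.25% lower. The members were chosen with earlier results of these data known, so their count and median are descriptive. The median log2 fold change was -0.43 over the 9 members, with 7 below 0 and 2 above, and 0 over all genes. Scaling by total counts alone moved the median of all genes to 0.14 and the calls from 418 higher and 600 lower to 715 higher and 396 lower. Under that scaling Jag1 (-1.72), Notch2 (-0.93) and Heyl (-1.66) stayed lower and called, and Hey2 (1.11) became a call in edgeR at an adjusted p of 0.0364.

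**Figure D2:**
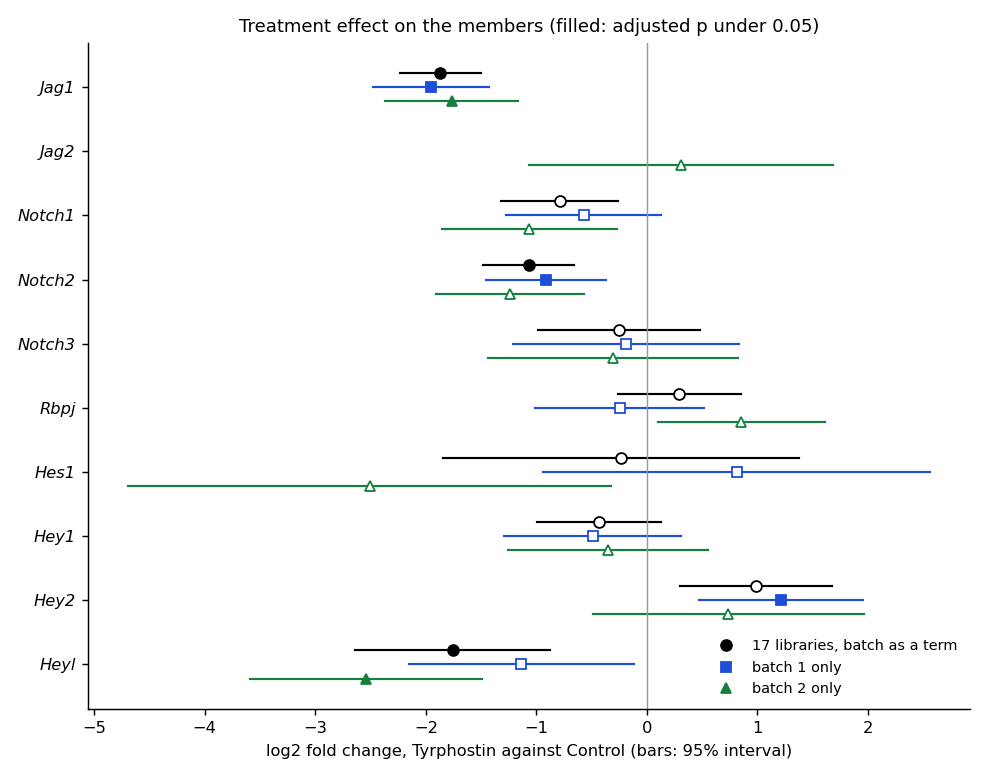
Log2 fold change of each member, Tyrphostin against Control, with 95% intervals, over all libraries and within each batch, filled where the adjusted p is under 0.05. Jag1 lies between -1.96 and -1.77 in all 3 fits, whereas Hes1 changes sign between the batches.

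Each batch holds both groups and no shared library, so the effect was also fitted within each. In batch 1, 3 of 9 members were called: Jag1 (log2 fold change -1.96 ± 0.25, SE) and Notch2 (-0.91 ± 0.26) lower, and Hey2 (1.22 ± 0.35) higher, with edgeR adjusted p of 8.76e-05, 0.0383 and 0.0446. In batch 1, 6.73% of 9423 genes were called, 2.94% higher and 3.79% lower. All 3 Tyrphostin libraries lay below all 6 Control libraries for Jag1 and Notch2, a separation shared by 6.46% of genes, and above them for Hey2, as for 5.04%. Of the 7 theca and stroma markers tested in batch 1, 2 were called, Col1a1 (-1.20 ± 0.32) and Col1a2 (-1.28 ± 0.36). Both were lower (edgeR adjusted p 0.0270 and 0.0442), and the median over the list was -0.81. Cyp17a1, on the same list, had a higher mean with Tyrphostin, 129 CPM against 53.3 CPM in batch 1 Control. The summed level of that list was 253 to 718 CPM in batch 1 Control and 271 to 369 CPM in batch 1 Tyrphostin libraries. In batch 2 the median over that list was 0.57. The part of these markers in the Jag1 and Notch2 values was not tested.

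The batch 1 Notch2 call was lost without Control 2, 3, 4, 5 or 6 or Tyrphostin 1 or 2 (edgeR adjusted p 0.0513 to 0.171). The Hey2 call was lost without Control 2, 4 or 5 or any 1 Tyrphostin library (edgeR adjusted p 0.0726 to 0.170). With Control libraries summed by set, Jag1 was the only member called in batch 1. With total counts alone the calls in batch 1 were 459 higher and 264 lower in place of 277 and 357, and Notch2 had an adjusted p of 0.0987 in edgeR.

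In batch 2, 2 of 10 members were called, Jag1 (-1.77 ± 0.28) and Heyl (-2.54 ± 0.48), both lower, with edgeR adjusted p of 0.0147 and 0.0410. Only 0.621% of the 9830 genes tested there were called, 0.193% higher and 0.427% lower. Jag1, Notch1, Notch2 and Heyl had every Tyrphostin library below every Control library in batch 2, as did 4.89% of all genes, and Rbpj had every one above, as did 4.21%. The Jag1 call was lost without Tyrphostin 5 (edgeR adjusted p 0.114) or Tyrphostin 6 (0.104). The Heyl call was lost without Control 7, 8, 10 or 11 or any 1 Tyrphostin library (edgeR adjusted p 0.0565 to 0.197). With Control libraries summed by set, Jag1 was the only member called in batch 2. With total counts alone the calls in batch 2 were 26 higher and 29 lower in place of 19 and 42, and Heyl had an adjusted p of 0.0708 in edgeR. Jag2 passed the filter in this batch, with a log2 fold change of 0.31 ± 0.63 (edgeR adjusted p 0.924).

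The difference of the effect between batches was tested directly, and 0 of the 9603 genes passed in edgeR (0%), as with DESeq2 and limma-voom. At an unadjusted p under 0.05 in edgeR there were 342 genes, 3.56% of those tested. Among them were 2 of the 9 members, Hes1 and Rbpj. The effect in batch 2 minus that in batch 1 was 1.10 ± 0.50 for Rbpj (unadjusted p 0.0360) and -3.27 ± 1.48 for Hes1 (0.0424), both with an adjusted p of 1 in edgeR. For Jag1 it was 0.20 ± 0.34, with an interval from -0.50 to 0.89. With no filter on low counts, 17 of 21622 genes were called higher and 62 lower. Hes1 was among the genes called, with 7, 2 and 2 counts in the Tyrphostin libraries of batch 2.

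Among Control libraries alone, Notch1, Notch2 and Hey1 were lower in batch 2 than in batch 1. The log2 fold change was -1.26 ± 0.24 (SE) for Notch2, -1.05 ± 0.26 for Notch1 and -0.98 ± 0.31 for Hey1, with edgeR adjusted p of 0.00276, 0.0160 and 0.0493. In this comparison 11% of 9128 genes were called, 5.5% higher and 5.5% lower. Some cell type markers differed between the Control batches as well. Dcn (1 of 7 theca and stroma markers tested), Lyz2 (1 of 2 immune) and Zp3 (1 of 7 oocyte) were called higher in batch 2. So was Cyp19a1 (1 of 7 granulosa), while Acta2 (1 of 2 mural) was called lower. The 1 endothelial marker tested was not called. The theca and stroma sum was 253 to 718 CPM in batch 1 and 407 to 2130 CPM in batch 2, the immune sum 18.7 to 61.7 and 54.2 to 462 CPM, the oocyte sum 17 to 46 and 24.8 to 83.5 CPM, the mural sum 23.6 to 74.7 and 10.5 to 37.4 CPM, and the endothelial sum 10.7 to 90.6 and 5.76 to 21.5 CPM. Their part in the 3 member differences was not tested. Jag1 differed by -0.09 ± 0.19 and Heyl by -0.47 ± 0.47, with adjusted p of 0.810 and 0.587 in edgeR. The library names of Control samples carry set numbers, and when Control libraries were summed by set none of the 3 calls held in edgeR (adjusted p 0.147 for Notch1, 0.0704 for Notch2 and 0.266 for Hey1). The Hey1 call was also lost when any Control library but Control 5 or 6 was left out (0.0602 to 0.105). With total counts alone the calls were 907 higher and 281 lower in place of 502 and 502, and Hey1 had an adjusted p of 0.119 in edgeR.

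Levels of different genes were compared per kb of merged exons. Exons of every annotated transcript were merged, 12 transcripts and 12.75 kb for Rbpj and 4 transcripts and 2.04 kb for Hes1. The length of the transcripts expressed was not measured, so the order rests on the annotation too. In Control follicles Notch2 (median 19.8 CPM per kb), Jag1 (18.7) and Heyl (18.0) formed the top of the order, and the other 7 genes followed from Hes1 (1.47) and Hey1 (1.30) down through Hey2 (0.982), Notch1 (0.780), Notch3 (0.367), Rbpj (0.343) and Jag2 (0.208). With Tyrphostin the first 3 places were the same genes at lower medians, Notch2 at 7.90, Jag1 at 5.32 and Heyl at 5.22 CPM per kb, followed by Hey2 (2.38). The ranges over libraries of every pair of neighbours overlapped in both groups, although within single Control libraries Notch1 exceeded Notch3 in 11 of 11 and Heyl exceeded Hes1 in 10 of 11. Notch2 exceeded Jag1 in 5 of 11 Control and 3 of 6 Tyrphostin libraries.

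**Figure D3:**
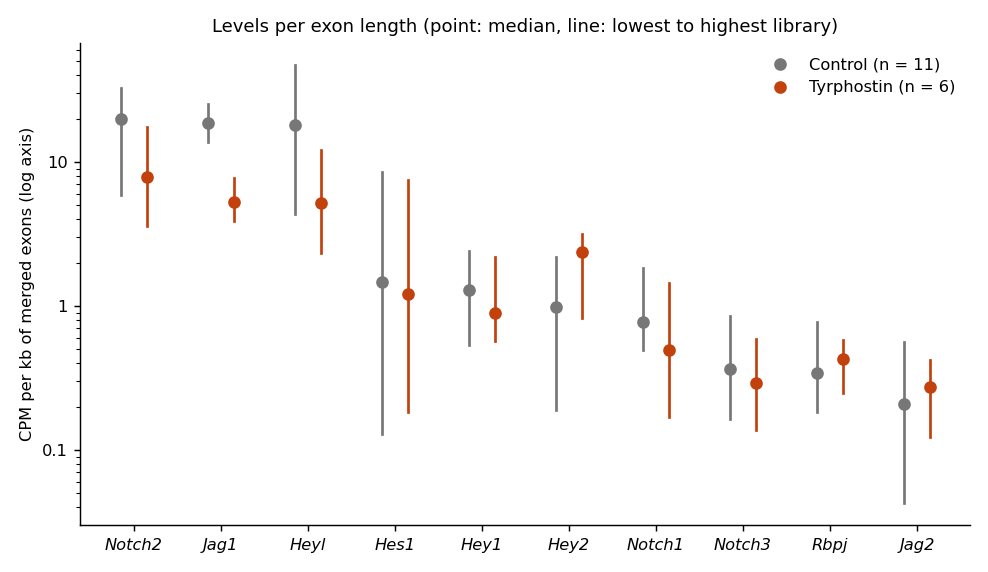
Median level of each member in CPM per kb of merged exons (log axis), by group, with the range over libraries. Notch2, Jag1 and Heyl have the highest medians in both groups, at 18.0 to 19.8 CPM per kb in Control and 5.22 to 7.90 in Tyrphostin.

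Of 67 other NOTCH pathway genes listed by role, 44 could be tested and 4 were called in edgeR, 3 lower and 1 higher, beside 10.6% of all genes tested. The median over these 44 was -0.02 on the log2 scale, with 22 above 0 and 22 below. The 6 other ligand and receptor genes (Dll1, Dll3, Dll4, Dlk1, Dlk2 and Notch4) did not pass the filter. Maml2, a Mastermind coactivator, fell by 1.56 ± 0.24 on the log2 scale (edgeR adjusted p 0.000125). Its level ran from 7.12 to 20.2 CPM in Control and from 2.95 to 5.22 CPM in Tyrphostin. All 6 Tyrphostin libraries thus lay below all 11 Control libraries, as for 1% of all genes tested. Furin, a protease that matures the receptors, had 11.0 to 48.5 CPM in Control and 8.39 to 16.2 CPM in Tyrphostin, and fell by 1.23 ± 0.24 (edgeR adjusted p 0.00122). Myc, a transcription factor gene among the listed targets, held 52.1 to 238 CPM in Control and 32.4 to 68.1 CPM in Tyrphostin, and fell by 1.32 ± 0.28. Its edgeR adjusted p was 0.00323. Poglut1, which adds glucose to NOTCH, rose by 0.64 ± 0.17, with 9.57 to 17.1 CPM in Control and 16.1 to 27.8 CPM in Tyrphostin. Its edgeR adjusted p was 0.0143, and 0.0575 without Tyrphostin 6.

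Elsewhere in the list no gene passed the test: 0 of 2 in ligand endocytosis, 0 of 7 in turnover and feedback and 0 of 13 corepressors. The proteases and gamma-secretase genes included 8 others besides Furin that were tested, among them Adam10 (0.18 ± 0.19), Adam17 (0.01 ± 0.16) and Ncstn (0.10 ± 0.15), none of which passed. Within batch 1 alone, 4 of the 41 tested were called, Dtx3, Furin, Maml2 and Myc, all lower, beside 6.73% of all genes. Within batch 2 none of the 45 tested was called in edgeR. There 6 of the 45 (13.3%) had an unadjusted p under 0.05, as did 10.7% of all genes.

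**Figure D4:**
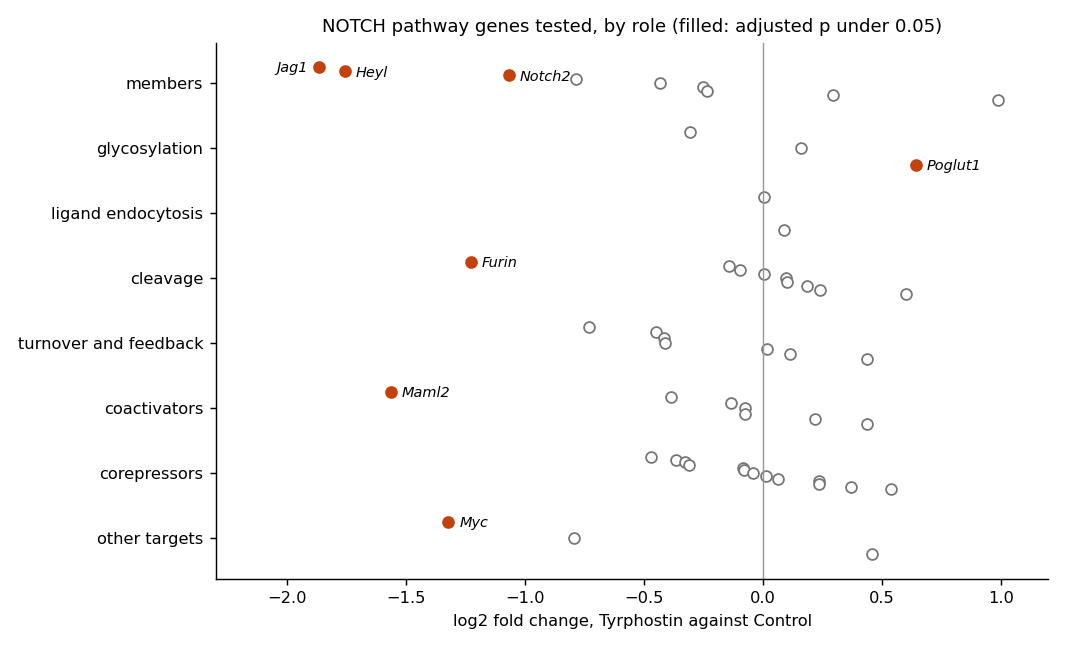
Log2 fold change, Tyrphostin against Control, of the tested members and other NOTCH pathway genes in rows by role, filled where the adjusted p is under 0.05. The filled points are Jag1, Heyl, Notch2, Furin, Maml2 and Myc on the lower side and Poglut1 on the higher side.

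The genes with the most similar pattern over the 17 libraries were found by the mean absolute difference of centred log2 CPM among 6100 genes. The nearest to Jag1 were Phldb2 (0.28) and Il17ra (0.31), where Jag1's own mean deviation was 0.85. The nearest to Notch2 were Mid1 (0.24) and Cblb (0.24), against its own deviation of 0.78. The nearest to Heyl, Fetub (0.48) and Lrrfip1 (0.49), were less close, against 0.95.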

How the data were processed

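The authors deposited raw whole-number counts per gene symbol. STAR, HTSeq and build GRCm38 are named, without versions, per the submitters' processing notes, and Smart-Seq2 libraries carry no molecular identifiers per the labels' protocols, so floors cover counting error only. Columns were matched to samples by their names. edgeR 4.0.16 (R 4.3.3) tested the counts, with filterByExpr by treatment (by batch for the Control comparison), TMM, estimateDisp, robust glmQLFit and glmQLFTest, Benjamini-Hochberg adjustment over all genes tested, threshold 0.05. SE is the log2 fold change over the square root of F, and intervals use t quantiles. CPM uses TMM-scaled totals. Likeness used log2 CPM (prior count 2) of genes averaging at least 3. The script was tested on simulated data. All members are named, with pathway genes by role. Members and lists were chosen with earlier results of these data known. Alternatives were other scalings, DESeq2 1.42.0, limma-voom (limma 3.58.1), other filters, covariates and blocks, Control libraries summed by set, and omission of each library. Omitting Control 7, Control 8 and Tyrphostin 5 together was chosen after seeing the data. All 31 same-group, same-batch pairs differed by more than counting noise (chi-square over degrees of freedom, 11.8 to 84.1).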

Additional observations from a re-analysis of the deposited data

Results flagged for a closer look

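In 3 of 30 groups of libraries searched, 1 library lay far from the rest by Dixon's criterion, where chance gives about 1.5. Jag1 stood at 138 CPM in Control 11, against 97.9 to 109 CPM in the other Control libraries of batch 2. Rbpj stood at 9.85 CPM in Control 6, the shallowest library, against 3.95 to 6.09 CPM in the other Control libraries of batch 1. Hey1 stood at 7.17 CPM in Tyrphostin 1, against 1.87 to 3.29 CPM in the other Tyrphostin libraries.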

How the results depend on the processing

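Of 529 single-gene values recomputed under an alternative, 454 kept direction and side of the threshold, 54 lost the call, 14 gained one and 7 changed sign. Members called over all libraries, 3 in the reported fit, were 5 with DESeq2 and with limma-voom, which added Notch1 and Hey2. Without the batch term they were 2 (Jag1 and Heyl). With the replicate block they were 2 (Jag1 and Notch2). In that block the treatment effect rested only on the libraries numbered 1 to 3 in each group, all of batch 1. Numbers 4 to 6 set batch 1 Control against batch 2 Tyrphostin libraries, and the other Control libraries share no number with Tyrphostin. All genes called, 1018, were 619 without the batch term, 636 with the replicate block and 678 with log10 total count as a covariate. Pathway genes called, 4, were 2 with the replicate block. Members called within batch 1, 3, were 1 with Control libraries summed by set, 1 with the depth covariate and 1 to 3 with 1 library left out. Members called within batch 2, 2, were 1 with total counts, 1 with limma-voom, 1 with Control libraries summed by set, 1 without Control 7, Control 8 and Tyrphostin 5, and 0 to 2 with 1 library left out. The difference between batches, 0 members, was 1 (Hes1) with no filter, and the Control batch comparison, 3, was 0 with Control libraries summed by set. Hes1 changed sign with limma-voom (0.61), without the batch term (0.14), with the replicate block (0.31) and with the depth covariate (0.15), and ran from -0.72 to 0.14 with 1 library left out. With the replicate block Rbpj was -0.076, and the calls of Heyl (-0.53, edgeR adjusted p 0.462), Furin (0.066), Poglut1 (0.268) and, within batch 1, Hey2 (0.134) were lost. Same-numbered libraries, as deviations from their group and batch means, correlated at 0.32, 0.08 and 0.05 for numbers 1 to 3, within batch 1, and at 0.10, 0.03 and 0.11 for numbers 4 to 6, which cross batches. Not every pair was over 0.1, so the libraries were taken to share only a number. For numbers 4 to 6 the check could not show pairs, because it set libraries of different batches together. Pairing of Tyrphostin libraries with Control sets was not tested. Without removing batch, numbers 1 to 3 correlated at 0.47, 0.31 and 0.38. The block could not be fitted for the difference between batches or within batch 2. Jag1, Notch2 and Heyl kept their calls over all libraries in 17 of 17 omissions of 1 library. The causes of these changes were not tested. Jag2, with 1 to 20 counts in Control, was too low to be tested over all libraries.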
